A study of Bos taurus with 6 samples.

Results

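The mitochondrial ribosomal protein genes were taken as the genes on a bovine oligonucleotide array whose symbol begins with MRPL or MRPS followed by a digit, each represented by its brightest probe (mean log2 intensity of the 2 channels). This gave 75 genes, measured by 128 probes, among 15216 genes with a symbol on the array. RNA of in-vitro bovine blastocysts was compared with RNA of bovine granulosa cells, the somatic lining cells of ovarian follicles, and both are labelled Holstein. Blastocysts were collected on day 7 after fertilisation with frozen semen mixed from 3 bulls, from abattoir oocytes of follicles of 3 to 6 mm and cultured in SOF medium. Granulosa cells came from follicles over 5 mm of lactating cows on day 8 to 11 after oestrus that had received 6 doses of 40 mg of follicle-stimulating hormone, 240 mg in all, and were harvested 44 h after the last dose. No unstimulated granulosa cells and no in-vivo embryos were part of the comparison, so embryo culture and hormone treatment each go with 1 cell type. Each of the 6 arrays carried both RNAs, with the blastocyst in Cy3 on 3 and the granulosa cells in Cy3 on the other 3, and same-numbered arrays of opposite dye were averaged into 3 replicates. Per the labels the replicates are biological and RNA was handled in pools, but the sources used here do not give the number of animals or embryos behind a pool, so p-values measure the spread between these 3 pairs of pools, part of which may be technical.

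Mitochondria hold their own ribosome, which translates the few messenger RNAs encoded by mitochondrial DNA, all of them for membrane subunits of the respiratory chain and ATP synthase. Its ribosomal RNAs are mitochondrial transcripts, while all its proteins are made from nuclear genes in the cytoplasm and imported, so the genes described here are nuclear. Proteins named MRPL mostly belong to the large subunit, where peptide bonds form, and those named MRPS to the small subunit, where the message is decoded. Some descend from proteins of the bacterial ribosome and others are specific to mitochondria. Mitochondria of the early embryo come from the oocyte, and the blastocyst, whose trophectoderm pumps ions and fluid, is known as a stage of rising oxygen use.

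Of the 75 genes, 73 were above background in at least 1 cell type and were tested, and 70 of these were above background in both cell types on all 6 arrays. MRPL36 and MRPS12, the mitochondrial form of a decoding-centre protein, were not tested. MRPL36 was above background on 1 array in blastocysts and on 0 in granulosa cells, and MRPS12 on 1 array in each. The other exceptions were dim probes. MRPS9 was above background on 2 arrays in granulosa cells, MRPS34 on 5, and MRPL2 on 3 arrays in each cell type.

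The cell labels were checked against marker genes. The summed normalised intensity of 8 blastocyst markers, among them NANOG, POU5F1 and TFAP2C, ranged from 101900 to 118000 in the blastocyst pools, against 1657 to 4617 in the granulosa pools. That of 8 granulosa markers, among them INHA, INHBA and FST, ranged from 1494 to 2128 in the blastocyst pools, against 85420 to 132500 in the granulosa pools. The granulosa pools also differed among themselves in the summed markers of other cells, though single genes carried much of the leukocyte, theca, endothelial and erythroid sums. The 8 leukocyte markers, 6 of them above background in granulosa cells, summed to 1119 to 1349 in the blastocyst pools, against 40510, 2570 and 1881 in granulosa pools 1 to 3, and CD79A and ITGAM were not well above background. The 4 theca markers, 3 of them above background in blastocysts and 4 in granulosa cells, summed to 1446 to 1962 in the blastocyst pools, against 3968, 13280 and 691 in granulosa pools 1 to 3. The 4 endothelial markers summed to 585 to 607 in the blastocyst pools, against 5188, 4307 and 539 in granulosa pools 1 to 3, and the 3 erythroid markers to 636 to 797, against 8592, 992 and 928. The 4 epithelial markers, of which MSLN was not well above background, summed to 67760 to 73170 in the blastocyst pools, against 3121, 35480 and 879 in granulosa pools 1 to 3. In replicates 1 to 3 the log2 ratio of blastocysts over granulosa cells was -1.39, -3.69 and 2.92 for STAR (theca). It was -4.87, -5.06 and 0.24 for KDR (endothelial) and -5.23, -1.61 and -1.64 for HBB (erythroid). For LYZ (leukocyte), near the scanner's limit on 2 arrays, it was -6.79, -2.8 and -2.98. Mean ratios were 0.11, -0.17 and -0.30 for CYP17A1, INSL3 and LHCGR, and 0.07, 0.01 and -0.64 for CDH5, PECAM1 and VWF. HBA had 0.35 and GYPC -0.07. PTPRC, AIF1, CD68, CD3E and CD14 had -1.40, -1.12, -1.09, -0.71 and -0.49. In replicate 1 alone PTPRC had -3.02 and AIF1 -3.06. These sums therefore need not follow the number of such cells, whose part in the values below was not tested. In these bulk RNAs, a difference in the number of cells of a type and a difference in RNA per cell cannot be told apart, and an array ratio is relative to the other RNAs on the array.

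The median log2 ratio of blastocysts over granulosa cells was 0.31 for the 73 mitochondrial ribosomal protein genes, beside -0.02 for all 13227 genes tested. Their middle 50% of genes lay between 0.05 and 0.77, beside -0.32 and 0.23 for all genes. The ratio was positive in 57 of the 73 (78.1%), beside 46.6% of all genes. In 41 genes it was positive in all 3 replicates (31.1% of all genes were), in 8 it was negative in all 3 (36.0% of all genes were), and in 24 the sign was mixed. The tilt towards blastocysts stood on each array singly. The median over the 73 genes was 0.44, 0.56 and 0.25 on the arrays with the blastocyst in Cy3, and 0.32, 0.62 and 0.18 on the arrays with granulosa cells in Cy3. All-gene medians on these arrays lay between -0.05 and 0.01. Without any normalization the all-gene median moved to -0.21 and that of the 73 genes was 0.24, so the gap between them did not close.

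A gene was called where limma's Benjamini-Hochberg adjusted p was under 0.05 and the log2 ratio was at least 1 in size. By this rule 10 genes of the 73 were called, where 13.4% of all genes tested were. Of these, 7 were higher in blastocysts, where 5.69% of all genes were, and 3 were lower, where 7.66% were. The 10 genes were all among the 70 above background in both cell types on all 6 arrays, and of the 8426 genes of that kind 7.46% were called higher and 10.2% lower. With so few calls, no departure from these background shares is read from the counts. At an unadjusted p under 0.05 with no limit on size, 33 genes were higher, where 20.4% of all genes were, and 5 were lower, where 21.1% were. With the 6 arrays fitted singly and the replicate number as a block, 16 genes were called higher, where 7.90% of all genes were in that fit, and 3 lower, where 11.2% were. Without replicate 2 none was called (0 of all genes by the same test, 24 of the 73 at an unadjusted p under 0.05). Without replicate 1 there were 6 calls, 4 of them among the 10, where 3.58% of all genes were called higher and 4.07% lower. Without replicate 3 there were also 6, 5 of them among the 10, where 3.55% were higher and 6.31% lower.

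**Figure D1:**
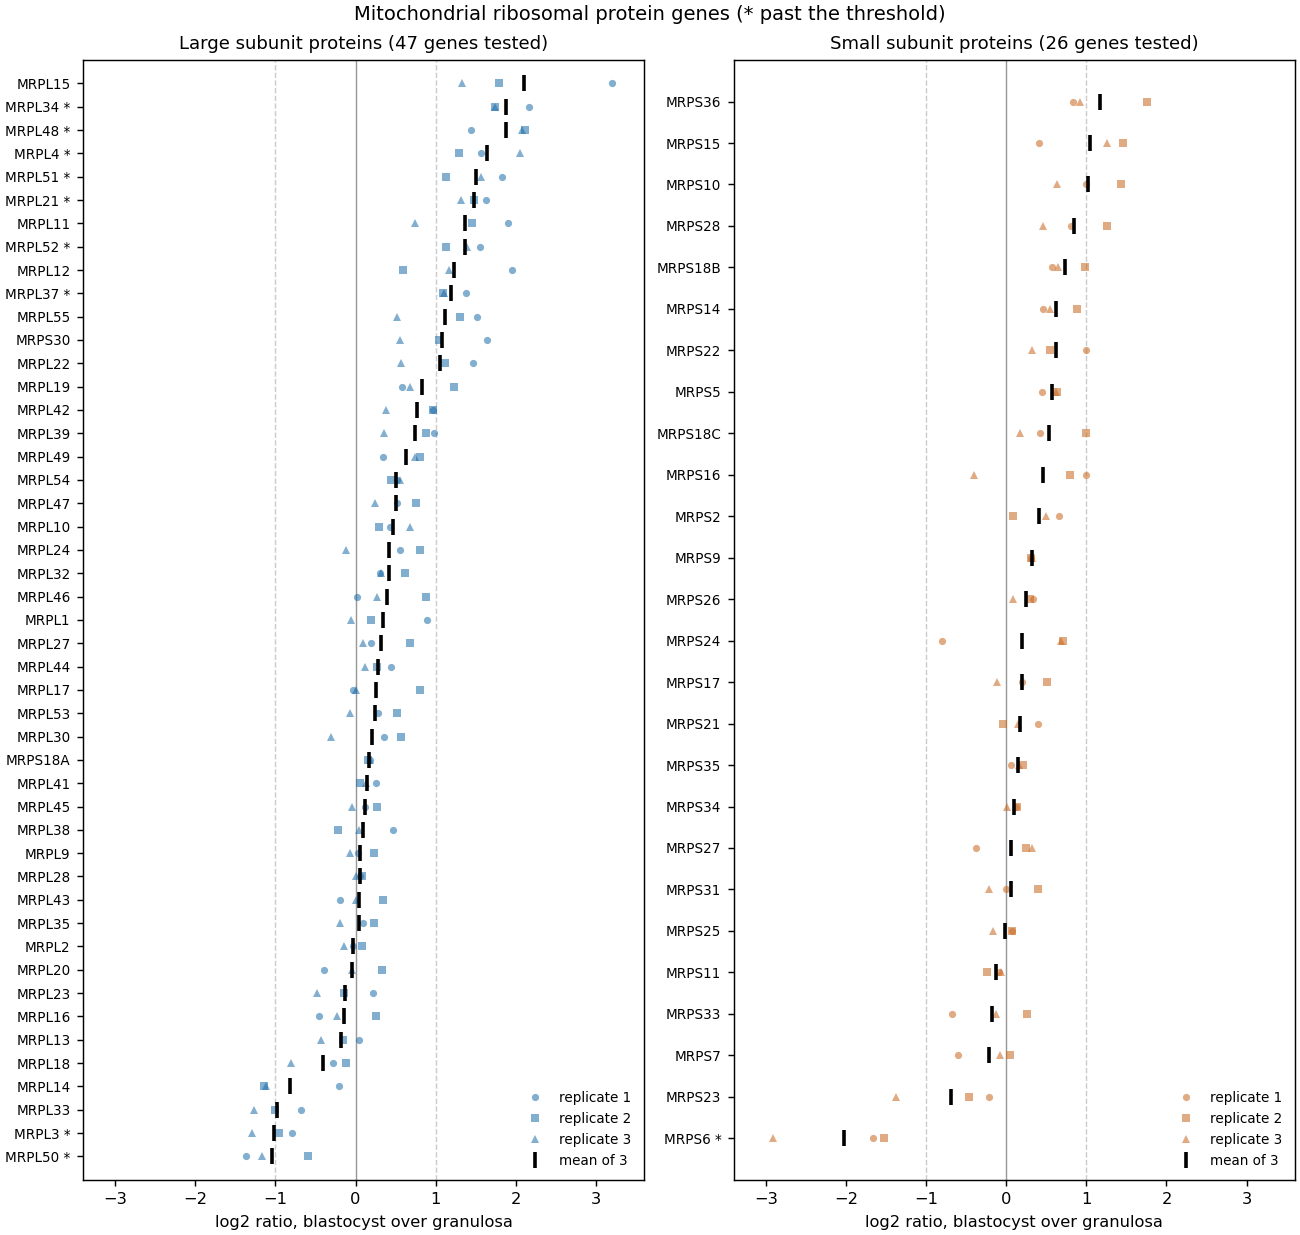
Log2 ratio of blastocyst over granulosa (x axis) for each tested mitochondrial ribosomal protein gene (y axis). The 47 large subunit genes are on the left and the 26 small subunit genes, with MRPS36 counted by its name, on the right. Symbols are the 3 replicates, black ticks their mean, dashed lines a ratio of 1 in either direction, and asterisks the 10 genes called. Most means lie right of 0, with MRPL15 at 2.11 the highest and MRPS6 at -2.03 the lowest.

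The large subunit held all 7 genes called higher, but also 47 of the 73 genes tested. Calls by class stand beside 5.69% of all genes called higher and 7.66% called lower. With so few calls, no departure from these shares is read for a class. Of the 47 large subunit genes 7 were higher and 2 lower, with a median log2 ratio of 0.34. MRPS30 and MRPS18A are counted among the 47 because both proteins sit in the large subunit. Of the 26 tested small subunit genes, with MRPS36 counted by its name, none was called higher and 1 lower, with a median of 0.22. In limma's test 10 of the 26 were higher at an unadjusted p under 0.05, where 20.4% of all genes were. The replicate-block fit called MRPS10 and MRPS15 of the small subunit, and also MRPS36, higher, so the absence of such calls depends on the test. Genes with a bacterial homologue gave 3 calls higher and 2 lower among 44, with a median of 0.33. Genes specific to mitochondria gave 4 higher and 1 lower among 28, with a median of 0.24. The 18 mitochondria-specific proteins of the large subunit were positive in 17 cases, with a median of 0.45, and the 10 of the small subunit in 7, with a median of 0.08. These differences between classes were not tested. MRPS36, now known as the KGD4 subunit of the oxoglutarate dehydrogenase complex, was left out of both classes of descent but stayed among the 26 by its name.

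Among genes of the bacterial core of the large subunit, MRPL34 had the largest ratio of those called. Its normalised log2 intensity was 14.04, 13.72 and 14.06 in blastocyst pools 1 to 3, against 11.87, 11.97 and 12.33 in granulosa pools 1 to 3. The lowest blastocyst value was above the highest granulosa value. The log2 ratio was 1.88 ± 0.25 (SD, n = 3), a 3.69-fold higher level in blastocysts (limma adjusted p = 0.00963), and all 6 arrays gave the same sign.

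MRPL4 is the counterpart of the bacterial protein that lines the exit tunnel of the nascent peptide. Its log2 intensity was 13.42, 13.52 and 13.74 in blastocyst pools 1 to 3, against 11.86, 12.23 and 11.68 in granulosa pools 1 to 3. The groups did not overlap, and the largest ratio, 2.06, was in replicate 3. The mean ratio was 1.64 ± 0.39 (SD, n = 3; limma adjusted p = 0.0214). MRPL21, another protein of bacterial descent, gave the smallest adjusted p of the 73 genes. It measured 13.56, 13.27 and 13.34 in the blastocyst pools, against 11.93, 11.79 and 12.01 in the granulosa pools, a log2 ratio of 1.48 ± 0.15 (SD, n = 3; limma adjusted p = 0.00821). Its pools lay closer together within each cell type than the distance between the types.

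The other 4 genes called higher encode proteins specific to mitochondria. MRPL48, a protein of the central protuberance, measured 10.19, 10.71 and 10.83 in blastocyst pools 1 to 3, against 8.75, 8.59 and 8.75 in granulosa pools 1 to 3. Its ratio was 1.88 ± 0.38 (SD, n = 3; limma adjusted p = 0.0163), lowest in replicate 1, where the blastocyst value was lowest. MRPL52 measured 13.21, 12.75 and 12.76 in the blastocyst pools, against 11.65, 11.62 and 11.36 in the granulosa pools, with a ratio of 1.36 ± 0.22 (SD, n = 3; limma adjusted p = 0.0124). In both genes the groups stood apart by more than their own spread.

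MRPL37 measured 11.29, 10.61 and 10.84 in blastocyst pools 1 to 3, against 9.92, 9.51 and 9.73 in granulosa pools 1 to 3. Pool 1 was the brightest in both cell types, and the ratio varied less than the levels, at 1.19 ± 0.16 (SD, n = 3; limma adjusted p = 0.0107). MRPL51 measured 14.81, 14.61 and 14.86 in the blastocyst pools, against 12.99, 13.48 and 13.29 in the granulosa pools, a ratio of 1.51 ± 0.35 (SD, n = 3; limma adjusted p = 0.0211). Its blastocyst signal passed an intensity of 30000, near the scanner's upper limit, on 2 arrays, so the ratio may be understated there. A second, dimmer probe for MRPL51 gave only 0.18, and the mean of both probes was 0.84, under the limit on size.

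**Figure D2:**
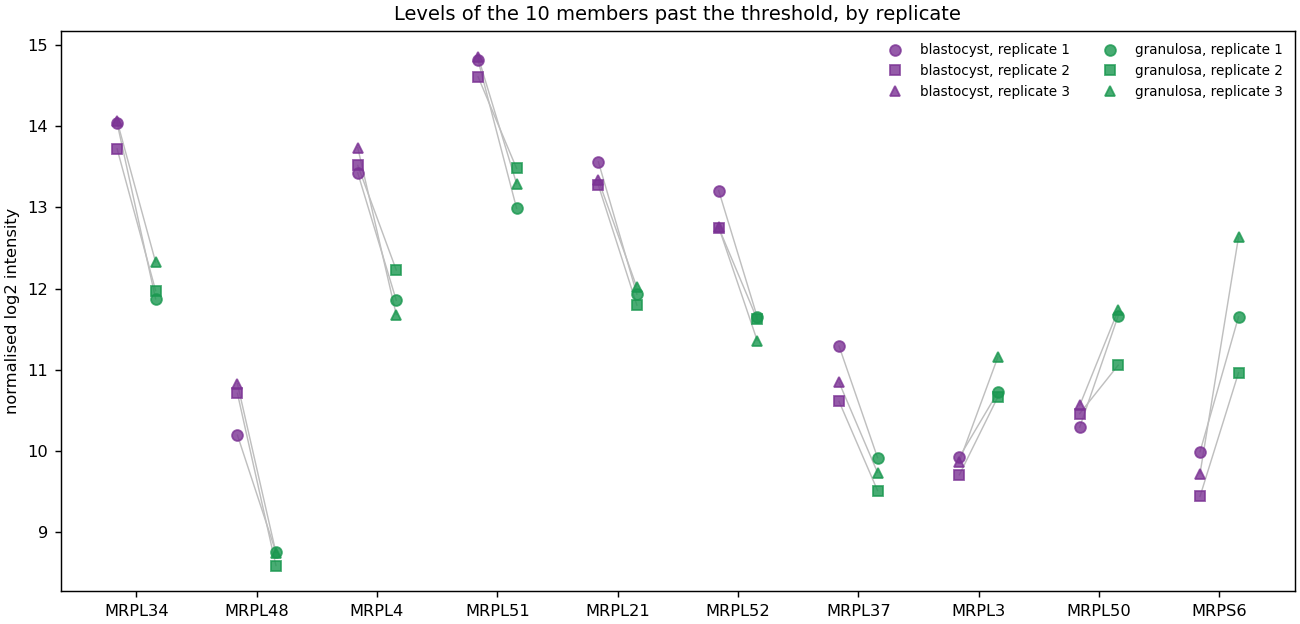
Normalised log2 intensity (y axis) of the 10 genes called (x axis), with the 3 blastocyst pools left and the 3 granulosa pools right for each gene, and lines joining the pools of 1 replicate. In MRPL34, MRPL48, MRPL4, MRPL51, MRPL21, MRPL52 and MRPL37 every blastocyst pool is above every granulosa pool, and in MRPL3, MRPL50 and MRPS6 every blastocyst pool is below.

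The largest ratio of all 73 genes was not called. MRPL15, of bacterial descent, measured 12.71, 11.40 and 11.18 in blastocyst pools 1 to 3, against 9.51, 9.61 and 9.84 in granulosa pools 1 to 3. Every blastocyst pool was brighter, but the first stood apart from the other 2. The ratio was 3.20, 1.80 and 1.33 in replicates 1 to 3, with a mean of 2.11 ± 0.97 (SD, n = 3; limma adjusted p = 0.0636).

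The stalk of the large subunit draws translation factors to the ribosome. MRPL12, the stalk protein proper, measured 12.88, 12.08 and 12.11 in blastocyst pools 1 to 3, against 10.93, 11.49 and 10.94 in granulosa pools 1 to 3, a ratio of 1.24 ± 0.68 (SD, n = 3; limma adjusted p = 0.0873). MRPL11, at the base of the stalk, measured 13.26, 12.87 and 12.91 in the blastocyst pools, against 11.35, 11.42 and 12.17 in the granulosa pools, a ratio of 1.37 ± 0.59 (SD, n = 3; limma adjusted p = 0.0573). Groups did not overlap in either gene, yet neither passed. MRPL10, which carries the stalk protein, varied less over the replicates, with a ratio of 0.47 ± 0.19 (SD, n = 3; limma adjusted p = 0.0636), and MRPL1, the protein of the opposite, mobile stalk, 0.34 ± 0.49 (SD, n = 3; limma adjusted p = 0.347).

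A further group passed the size limit but not the adjusted p, and in 3 of these the spread lay in the granulosa pools. MRPL22, another lining protein of the exit tunnel, measured 13.37, 13.30 and 13.34 in blastocyst pools 1 to 3, against 11.91, 12.17 and 12.76 in granulosa pools 1 to 3. MRPS30 measured 10.90, 10.89 and 10.98 in the blastocyst pools, against 9.25, 9.85 and 10.43 in the granulosa pools. The blastocyst pools lay close together in both genes, while granulosa pool 3 was the brightest of its type. Their ratios were 1.05 ± 0.45 and 1.08 ± 0.55 (SD, n = 3 each; limma adjusted p = 0.0574 and 0.0760). MRPL55 behaved in the same way, with ratios of 1.52, 1.30 and 0.52 in replicates 1 to 3.

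MRPL45, which holds the ribosome to the inner membrane, had a ratio of 0.11 ± 0.16 (SD, n = 3; limma adjusted p = 0.400). MRPL44, a protein with a ribonuclease III fold in which mutations cause cardiomyopathy in humans, had 0.28 ± 0.16 (SD, n = 3; limma adjusted p = 0.122). Neither gene was called.

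The genes lower in blastocysts included MRPL3, whose bacterial counterpart lies near the peptidyl transferase centre and binds early in assembly. It measured 9.92, 9.70 and 9.87 in blastocyst pools 1 to 3, against 10.72, 10.66 and 11.15 in granulosa pools 1 to 3, a ratio of -1.02 ± 0.25 (SD, n = 3; limma adjusted p = 0.0241). MRPL50, specific to mitochondria, measured 10.29, 10.46 and 10.56 in the blastocyst pools, against 11.66, 11.06 and 11.73 in the granulosa pools, a ratio of -1.05 ± 0.40 (SD, n = 3; limma adjusted p = 0.0484). MRPL33 missed the size limit with -0.98 ± 0.29 (SD, n = 3; limma adjusted p = 0.0320). In all 3 genes every blastocyst pool was dimmer than every granulosa pool. The groups overlapped in MRPL18, a protein of the central protuberance, with -0.40 ± 0.36, and in MRPS7, of the head of the small subunit, with -0.22 ± 0.35 (SD, n = 3 each; limma adjusted p = 0.194 and 0.397).

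MRPS6, the counterpart of a small subunit protein of bacteria, had the lowest ratio. It measured 9.99, 9.44 and 9.72 in blastocyst pools 1 to 3, against 11.65, 10.96 and 12.63 in granulosa pools 1 to 3. The groups did not overlap, and granulosa pool 3 was far above pool 2. The ratio was -2.03 ± 0.77 (SD, n = 3; limma adjusted p = 0.0451), a 4.09-fold lower level in blastocysts, and a second probe gave -1.98. The calls of MRPL3, MRPL50 and MRPS6 all ended under 4 other treatments of background or normalization, although their direction stayed and their ratios moved little. With median centring in place of loess the ratios were -0.90, -0.90 and -1.90, with limma adjusted p = 0.0463, 0.0675 and 0.0575.

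Small subunit genes higher in blastocysts did not reach both limits. MRPS15 measured 10.76, 11.04 and 11.05 in blastocyst pools 1 to 3, against 10.35, 9.59 and 9.80 in granulosa pools 1 to 3, a ratio of 1.04 ± 0.55 (SD, n = 3; limma adjusted p = 0.0831). MRPS10 measured 10.34, 10.83 and 10.60 in the blastocyst pools, against 9.35, 9.40 and 9.96 in the granulosa pools, a ratio of 1.02 ± 0.40 (SD, n = 3; limma adjusted p = 0.0507). Groups did not overlap in either gene. MRPS36, counted with the small subunit by its name only, had 1.16 ± 0.51 (SD, n = 3; limma adjusted p = 0.0598).

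At the adjusted p alone, 12 genes were higher, where 10.0% of all genes were, and 4 were lower, where 11.2% were. The 5 added genes with small steady ratios were mostly of the small subunit. MRPS18B had a ratio of 0.73 ± 0.21, MRPS14, in which mutations cause mitochondrial disease in humans, 0.63 ± 0.23, and MRPS5, at the messenger entry, 0.56 ± 0.11 (SD, n = 3 each; limma adjusted p = 0.0338, 0.0489 and 0.0234). MRPL54 had 0.51 ± 0.06 and MRPS9 0.31 ± 0.01 (SD, n = 3 each; limma adjusted p = 0.0186 and 0.0333). MRPS9 was dim, at 7.40, 7.27 and 7.38 in the blastocyst pools, against 7.09, 6.96 and 7.06 in the granulosa pools, and an offset of 50 added to every intensity holds the ratio of such a probe near 0.

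Of 35 genes with more than 1 tested probe, 10 had probes of opposite sign. For MRPL15 the other 2 probes gave 0.21 and 0.83 beside 2.11 for the brightest, and for MRPL12 the other gave -0.09 beside 1.24. MRPL53 gave 0.24 from a probe near the scanner's limit on all arrays and -0.66 from the other. MRPL55 had 3 probes between 0.81 and 1.11 and 1 at -0.29. Other genes were steady over their probes. MRPL22 had 1.05, 1.17 and 1.21, MRPL54 had 0.51 and 0.46, and MRPS6 had -2.03 and -1.98. MRPL42 was not called by its brightest probe at 0.77, while its other probe, at 1.15, was (limma adjusted p = 0.0124). Opposite signs also occurred within MRPL28, MRPL39, MRPL45, MRPS25, MRPS26, MRPS31 and MRPS34, whose brightest probes had ratios between -0.01 and 0.74. Which transcripts each probe detects was not tested.

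**Figure D3:**
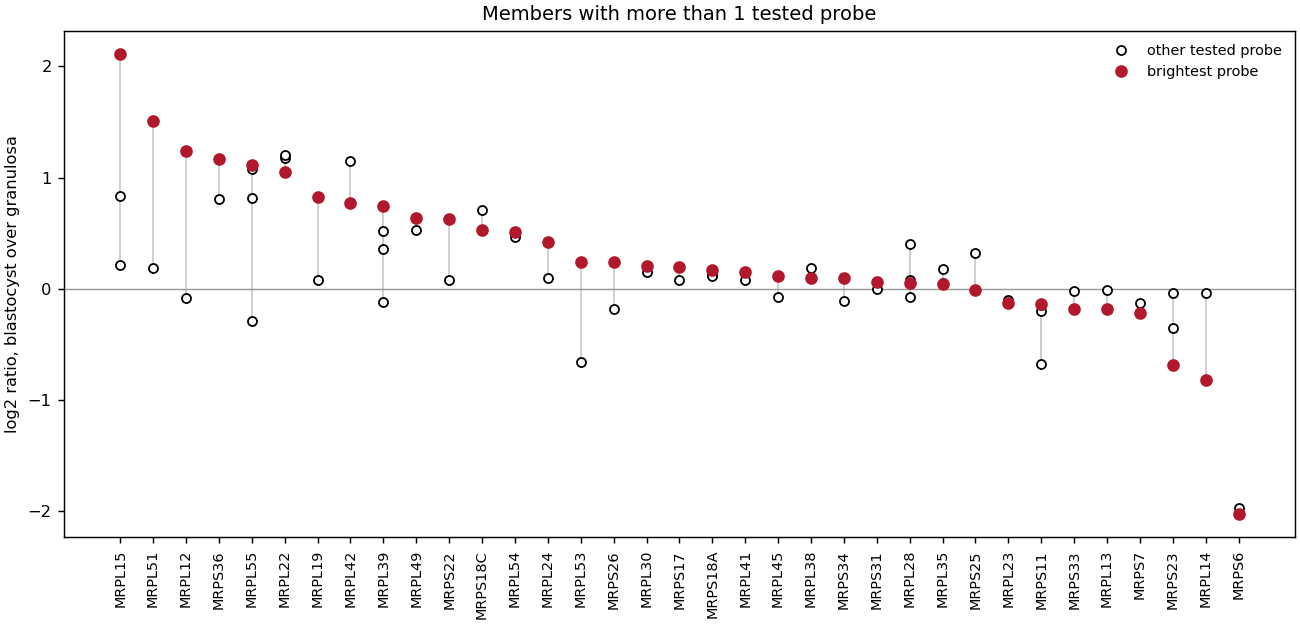
Log2 ratio of blastocyst over granulosa (y axis) for the 35 mitochondrial ribosomal protein genes with more than 1 tested probe (x axis), ordered by the brightest probe (red), with the other probes as open circles. The brightest and the other probes lie far apart in MRPL15, MRPL51 and MRPL12 and close together in MRPL22, MRPL54 and MRPS6.

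The ratio often differed between replicates by more than between the arrays of 1 replicate. By a limma F test over the 3 replicates with a dye term, the ratio of 53 of the 73 genes differed between replicates at an adjusted p under 0.05, where 48.5% of all genes did. The count was 16 without the dye term, where 15.7% of all genes did, and 31 with median centring in place of loess, where 27% did. The median ratio of the 73 genes was 0.35, 0.51 and 0.16 in replicates 1 to 3. Their SD over replicates had a median of 0.33, beside 0.20 for all genes, many of which are dimmer. Among genes above background in both cell types on all 6 arrays, the median SD was 0.34 for 70 of the 73 and 0.27 for all 8426. By the main F test 53 of these 70 and 5172 of these 8426 differed between replicates.

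Among these 53 genes the level ranged further over the granulosa pools than over the blastocyst pools in 37. Granulosa pool 3 was the brightest of its type in 40 of the 53, pool 1 in 7 and pool 2 in 6. Blastocyst pool 3 was the brightest in 32, pool 1 in 16 and pool 2 in 5. Blastocyst and granulosa pools of the same number share their arrays, so in these levels arrays and RNA pools cannot be fully told apart. The ratio was lowest in replicate 3 in 28 genes, in replicate 1 in 17 and in replicate 2 in 8. None of these counts was made over all genes, so they are not read as particular to the mitochondrial ribosomal protein genes. Granulosa pool 3 was the pool with the lowest summed leukocyte, theca and endothelial markers. Its summed granulosa markers were the highest, at 132500 against 102100 and 85420 in pools 1 and 2. Any link between these sums and the levels of the 53 genes was not tested.

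**Figure D4:**
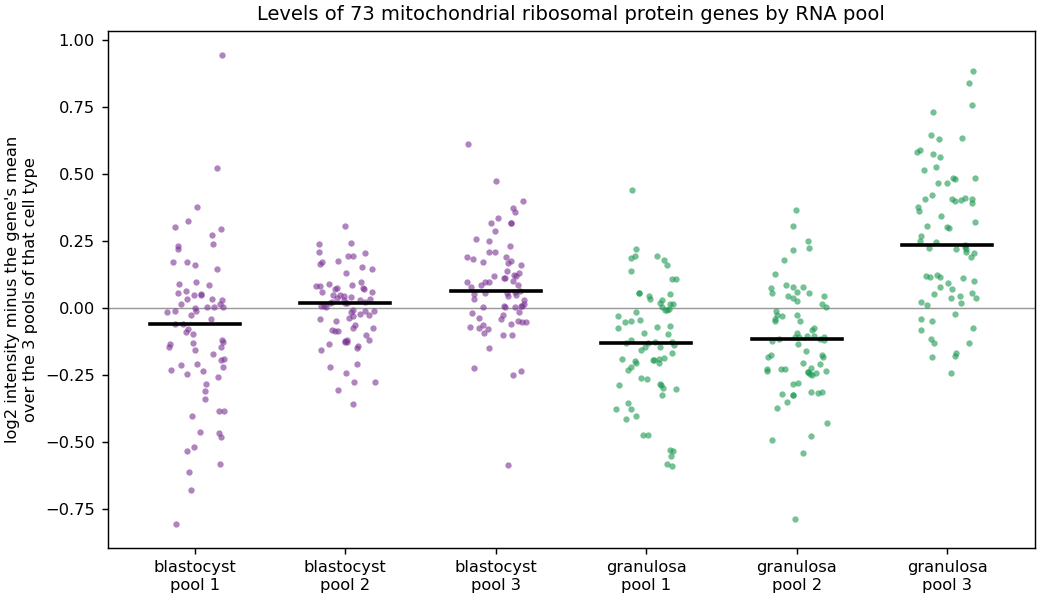
Log2 intensity of each of the 73 genes in each RNA pool minus the gene's mean over the 3 pools of that cell type (y axis), for blastocyst pools 1 to 3 and granulosa pools 1 to 3 (x axis), with the median as a bar. The median is -0.06, 0.02 and 0.06 in the blastocyst pools and -0.13, -0.12 and 0.23 in the granulosa pools, highest in granulosa pool 3. Pools of the same number share their arrays, so a deviation may lie in the arrays as well as in the RNA.

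Single genes varied in either cell type. In MRPS16, a small subunit protein in which mutations cause mitochondrial disease in humans, the log2 intensity was 10.86, 10.42 and 10.61 in blastocyst pools 1 to 3, against 9.87, 9.63 and 11.01 in granulosa pools 1 to 3. Its ratio was therefore 0.99, 0.79 and -0.41, and the groups overlapped through granulosa pool 3 alone. MRPS23, specific to mitochondria, was steady in blastocysts at 8.49, 8.59 and 8.63, against 8.70, 9.05 and 10.01 in the granulosa pools.

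In MRPS24, of bacterial descent, the spread was on the other side, with 8.92, 9.92 and 10.34 in blastocyst pools 1 to 3, against 9.72, 9.22 and 9.66 in granulosa pools 1 to 3. Its ratio of 0.20 ± 0.86 (SD, n = 3; limma adjusted p = 0.739) rests on replicate 1 having the opposite sign to the others. MRPL14 turned the other way round, with ratios of -0.20, -1.15 and -1.12 in replicates 1 to 3 and a mean of -0.82 ± 0.54 (SD, n = 3; limma adjusted p = 0.116). At the other end, MRPS9, MRPS18A, MRPL28, MRPL54, MRPS34 and MRPS35 had the smallest SDs, of 0.01 to 0.07, and ratios of 0.05 to 0.51.

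The wider machinery of mitochondrial translation was examined with lists of genes, read against the same 5.69% of all genes called higher and 7.66% called lower. Of 7 mitoribosome proteins whose symbols fall outside the MRPL and MRPS rule, 1 was higher and none lower, 3 were higher at an unadjusted p under 0.05, and the median ratio was 0.05. PTCD3, a pentatricopeptide repeat protein of the small subunit, had ratios of 1.65, 1.43 and 1.36, with a mean of 1.48 ± 0.15 (SD, n = 3; limma adjusted p = 0.00804). DAP3, the GTP-binding protein of the small subunit, had 0.91 ± 0.15 (SD, n = 3; limma adjusted p = 0.0151), under the limit on size. MRPL57, carried on the array under an older symbol, had -0.79 ± 0.60 (SD, n = 3; limma adjusted p = 0.149).

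Of 21 tested assembly factors of the mitoribosome 1 was higher and none lower, with a median of 0.20. TFB1M, which methylates the small ribosomal RNA of mitochondria, had ratios of 1.41, 1.40 and 1.34, with a mean of 1.38 ± 0.04 (SD, n = 3; limma adjusted p = 0.0051). Its dimmer probes gave ratios of 0.02 to 0.72, and the mean over its probes was not called. Of 12 translation factors none was called higher and 1 was called lower, with a median of 0.16. At an unadjusted p under 0.05 in limma's test 3 were higher and 2 lower, where 20.4% and 21.1% of all genes were. TUFM, the elongation factor that brings aminoacyl-tRNA to the ribosome, was negative in all 3 replicates, with a mean ratio of -1.21 ± 0.23 (SD, n = 3; limma adjusted p = 0.0165).

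Of 17 genes of mitochondrial aminoacyl-tRNA synthesis 2 were higher and none lower, with a median of 0.40. MARS2, the methionyl-tRNA synthetase, had 1.73 ± 0.11, and QRSL1, a subunit of the amidotransferase that makes glutaminyl-tRNA, 1.46 ± 0.27 (SD, n = 3 each; limma adjusted p = 0.00574 and 0.0152). The other probes of QRSL1 gave -0.06 to 1.10. Of 22 genes of mitochondrial DNA and RNA 2 were higher and none lower, with a median of 0.43. HSD17B10, a subunit of mitochondrial ribonuclease P, had 1.44 ± 0.19, and POLG, the catalytic subunit of the mitochondrial DNA polymerase, 1.05 ± 0.38 (SD, n = 3 each; limma adjusted p = 0.0101 and 0.0431). At an unadjusted p under 0.05 in limma's test, 21.1% of all genes were lower. In the lists these were 0 of the other mitoribosome proteins, 1 assembly factor, 2 translation factors, 1 gene of aminoacyl-tRNA synthesis and 3 of mitochondrial DNA and RNA. None of these 5 lists had more than 2 calls, and TUFM was the lone call in the opposite direction to the others.

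The genes were last set beside the respiratory chain, whose membrane subunits the mitoribosome makes in part, and the cytoplasmic ribosome. Of 78 tested nuclear genes of the respiratory chain and ATP synthase 11 were higher, where 5.69% of all genes were, and 2 lower, where 7.66% were. The median ratio was 0.35, and 61 were positive (78.2%). CYC1, the haem protein of complex III, had the highest with 2.17 ± 0.45, and NDUFS4, an accessory subunit of complex I, the lowest with -2.67 ± 0.47 (SD, n = 3 each; limma adjusted p = 0.0168 and 0.0127). A second CYC1 probe gave -0.04 and a second NDUFS4 probe -2.46. Of 63 cytoplasmic ribosomal protein genes none was higher and 8 were lower, the median was -0.17, and 16 were positive (25.4%). At an unadjusted p under 0.05 in limma's test, 5 were higher, where 20.4% of all genes were, and 24 were lower, where 21.1% were.

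RPS14, of the small cytoplasmic subunit, had the lowest of these with -2.37 ± 0.57 (SD, n = 3; limma adjusted p = 0.0214). In 27 of the 63 cytoplasmic genes the brighter signal was near the scanner's limit on all arrays, which can hold ratios near 0, while this was so for 1 of the 73 mitochondrial ones. Cytoplasmic ribosomal proteins also have many near-identical pseudogenes that a probe may detect. The difference between the lists was not tested, and the 2 kinds of ribosomal protein are set side by side as counts and medians.

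**Figure D5:**
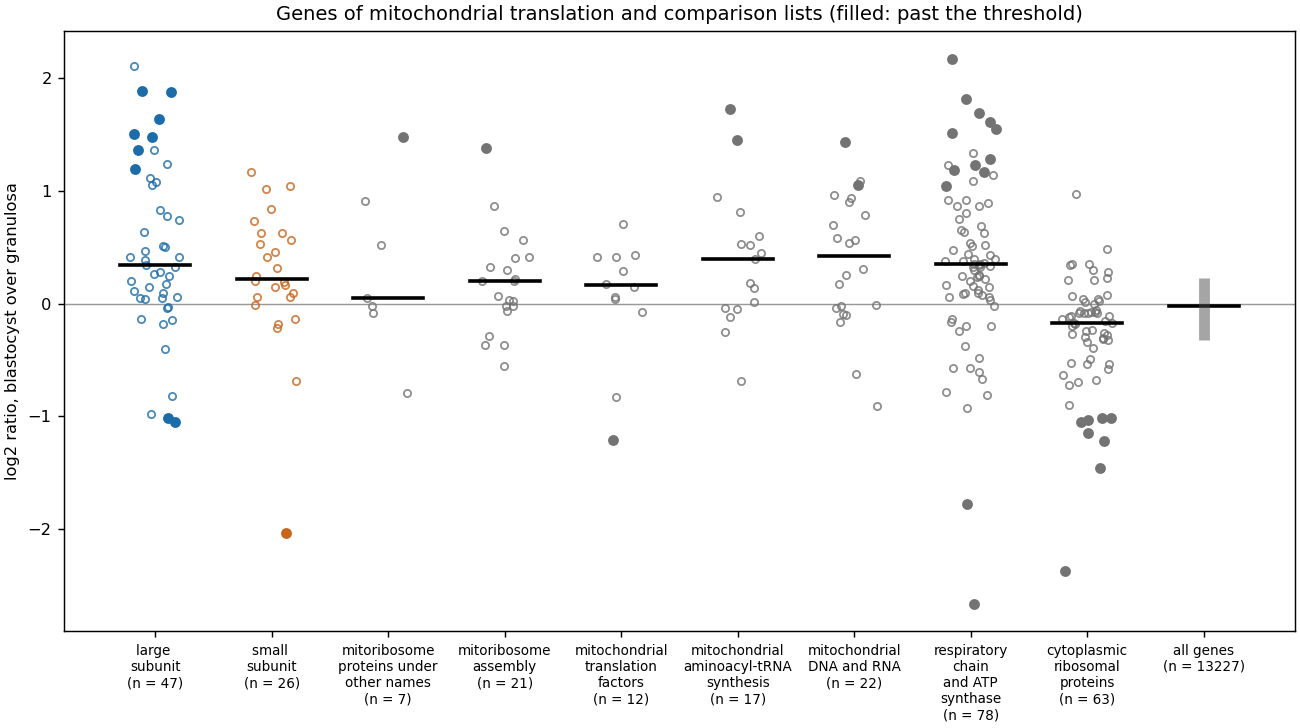
Log2 ratio of blastocyst over granulosa (y axis) for each tested gene of the large and small mitochondrial ribosomal subunits and of the other lists (x axis), filled where the gene was called, with the list's median as a bar. For all 13227 genes the median and the middle 50% are drawn. Medians are 0.34 and 0.22 for the large and small subunits (MRPS36 counted with the small), 0.35 for the respiratory chain and -0.17 for cytoplasmic ribosomal proteins.

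The genes outside the MRPL and MRPS set whose ratio followed the median of the 73 genes most closely over the 6 arrays were COX16, a cytochrome c oxidase assembly factor (Pearson r = 0.996), HNRNPU, a nuclear RNA-binding protein (r = 0.996), PSMD6, a proteasome subunit (r = 0.992), KNOP1 (r = 0.989) and ZNF197 (r = 0.987). They were picked from all genes on 6 arrays that form 3 pairs, so such values describe these arrays only. Their mean log2 ratios were 0.67, -0.78, 0.03, 1.01 and -0.55, so they share the order of the arrays and not the direction of the difference.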

How the data were processed

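Amplified antisense RNA of blastocysts and granulosa cells was measured on 6 arrays of 2 colours. The deposited raw intensity of each spot (mean) and its local background intensity (median) at 532 nm (Cy3) and 635 nm (Cy5) had not been corrected or normalized before deposit, per the file headers. The file of granulosa array 2 lists the wavelengths in the reverse order, and columns were read by wavelength. The authors' deposited value table is a score with no unit given. Its values equal 1 channel's log2 net intensity divided by the other's (100% within 1e-04), so it is not a log ratio and was not used as one. Its medians were -0.998, -0.998 and -1.00 on the arrays titled blastocyst and 1.00, 0.999 and 1.00 on those titled granulosa. After this match its scale and centring are known, but its direction follows column position on granulosa array 2. The sources used here do not name the scanner or its software.

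Intensities were corrected with normexp (offset 50) and normalized by loess within arrays (control spots at weight 0) in limma 3.58.1 with R 4.3.3, and figures were drawn with Python 3.11.15 and matplotlib 3.10.9. Cy3 medians per array ran between 188 and 384 before correction and Cy5 medians between 176 and 209, and the number of arrays limits the precision. Tested probes lay above the 95th percentile of 153 negative controls on at least 3 arrays in either cell type, which left 35034 of 43794 probes (80.0%). Ratios were turned to blastocyst over granulosa, same-numbered arrays averaged, and 3 replicates tested against 0 (lmFit, eBayes, 3.34 degrees of freedom). Adjusted p-values are over all tested probes. Levels per cell type are log2 intensities after loess and Aquantile. The fits were also run on simulated data with known differences, and how many of these were recovered is not reported here.

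Same-numbered arrays deviated together (r = 0.85 to 0.93, against -0.59 to -0.20 for other pairs), so the numbers, taken from the titles, pair the arrays.

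Gene symbols came from the platform annotation, in which 21790 probes have 1 symbol, with older symbols outside the MRPL and MRPS set updated through RefSeq. All 75 symbols matched RefSeq. No sequence or coordinate is given. The set, the lists and the classes were chosen with earlier results of these data known, and the lists were written from textbook knowledge. Named were all called genes, the 8 highest and 8 lowest ratios, the 6 highest and lowest SDs, genes whose probes disagree, untested genes, genes with a stated role, and up to 4 called genes in each direction of the lists. MRPS18B, DAP3 and MRPL57 were named after their values were seen. Oocyte markers summed to 668 to 711 in the blastocyst pools and 676 to 712 in the granulosa pools, and smooth muscle markers to 5875 to 8255 and 6583 to 10280.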

Additional observations from a re-analysis of the deposited data

How the results depend on the processing

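The median ratio of the 73 genes kept its sign in all alternatives, between 0.24 and 0.43, and no called gene changed direction in any. Against 10 calls (7 higher, 3 lower), there were 18 (14 higher) without normalization, where 6.31% of all genes were higher and 10.4% lower, and 16 (13 higher) when only genes above background in both cell types on all 6 arrays were fitted, where 8.40% were higher and 11.1% lower. With the replicate block there were 19 (16 higher), where 7.90% of all genes were higher and 11.2% lower, and with a dye term also 19 (16 higher), where 7.83% and 10.8% were. At the adjusted p alone there were 16 (12 higher), where 10.0% and 11.2% were. The 7 higher calls all held, and the lower ones fell to 0, without background correction, with half-minimum subtraction, with median centring and with the deposited net intensities. Without 1 replicate there were 0 to 6 calls, 0 to 5 higher and 0 to 1 lower, where 0 to 3.58% of all genes were higher and 0 to 6.31% lower. MRPL21, MRPL34 and MRPL37 held without replicate 1 and without replicate 3, and no gene held without replicate 2, where 3887 of all genes had an unadjusted p under 0.05.

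At the adjusted p alone the other mitoribosome proteins had 2 calls, assembly factors 5, translation factors 3, aminoacyl-tRNA synthesis 5, DNA and RNA 7 and the respiratory chain 23 (13 otherwise). With the mean of all probes assembly factors had 0 calls and aminoacyl-tRNA synthesis 1, where 4.91% of all genes were higher and 6.29% lower. DNA and RNA genes had 4 with median centring, where 7.28% of all genes were higher and 7.11% lower. They had 4 without normalization, where 6.31% and 10.4% were. Cytoplasmic ribosomal proteins had 3 with median centring and 4 with net intensities, against 8. With net intensities 5.54% of all genes were higher and 6.34% lower. Leaving out 1 replicate gave 0 to 1 calls for each of the first 3 lists, and 0 to 2 for aminoacyl-tRNA synthesis and for DNA and RNA. It gave 0 to 6 for cytoplasmic ribosomal proteins and 0 to 10 for the respiratory chain. In these fits 0 to 3.58% of all genes were higher and 0 to 6.31% lower. The 53 genes that differed between replicates (48.5% of all genes did) were 16 without the dye term (15.7%) and 31 with median centring (27%).

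Ratios near 0 changed sign. Without normalization, which moved the median of all genes to -0.21, MRPL28 had -0.14, MRPS31 -0.032, MRPS34 -0.11 and MRPS35 -0.038. With the mean of all probes MRPL53 had -0.21, MRPS25 0.15 and MRPS34 -0.012, and without probes near the scanner's limit MRPL53 had -0.66. MRPS25 had 0.039 without background correction, 0.040 with half-minimum subtraction, 0.0072 with median centring and 0.045 with net intensities. Leaving out 1 replicate gave -0.057 to 0.69 for MRPS24, -0.051 to 0.066 for MRPS25 and -0.11 to 0.20 for MRPS31. The cause of these changes was not tested. Dim probes limit the ratios of MRPL2, MRPS9 and MRPS34, and MRPL36 and MRPS12 gave none.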
